A study of Homo sapiens with 15 samples.

Results

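Tranilast and Amphotericin B, each combined with cisplatin, were compared directly in IGROV-CP20 cells, an established cisplatin-resistant human ovarian cancer line. The comparison used 6 of the 15 libraries of the study, 3 for each combination, selected by their labels, and 11113 of 47634 listed Ensembl genes had enough reads to be tested. Both arms received 50 µM cisplatin for 24 h after 24 h with 10 µM of the drug, so that cisplatin was common to both and no control library entered the contrast. The remaining libraries were untreated cells, cells given the same cisplatin alone, and cells given Telmisartan before cisplatin, with 3 libraries each. Every library was prepared from 100 ng of RNA with the QuantSeq 3′ kit, which primes on poly(A) and reads a fragment near the transcript end, and was sequenced with reads of 75 bp. No library of either drug without cisplatin was analysed here, so effects of a drug alone and of its combination cannot be told apart. The labels call the replicates biological but do not say that they were separate cultures. The p-values measure only the spread between libraries of the same condition, estimated over all 15 libraries.

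Tranilast is an anti-allergic derivative of anthranilic acid, and Amphotericin B is a polyene antifungal that binds membrane sterols. Cisplatin enters and moves through cells partly along the copper route, in which SLC31A1 imports copper at the plasma membrane, the chaperone ATOX1 carries it to the pumps ATP7A and ATP7B, and other chaperones deliver it to superoxide dismutase and to cytochrome c oxidase. The integrated stress response is a program in which phosphorylation of eIF2α lowers general translation and raises the transcription factor ATF4, which induces genes of amino acid uptake and synthesis. Both gene groups were followed here, together with the translation and mitochondrial machinery.

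Total counts were 2164344 to 3517041 in the Tranilast arm and 1510620 to 1872639 in the Amphotericin B arm, so that a floor of 3 counts stood for at most 0.000139% and 0.000199% of a library. Levels are given below as CPM, counts scaled to a common library total after TMM factors, which equalize the bulk of genes between libraries. The line was checked against epithelial markers. KRT18 was counted in all 15 libraries (at least 182 reads). So were EPCAM (14 to 163 reads), KRT8 (14 to 64) and CDH1 (5 to 27), and KRT19 had 0 to 16. By contrast, PAX8, WT1, MUC16, KRT7, CLDN3, CLDN4 and MSLN, used as markers of ovarian carcinoma, had at most 4 reads in any library. No endothelial marker reached more than 1 read, and PTPRC was the leukocyte marker with the most reads (18 to 98 with Tranilast and 14 to 17 with Amphotericin B), with the others at 8 or fewer. In untreated cells PTPRC had 70.1, 64.5 and 75.4 CPM. The untreated means of KRT18, EPCAM and KRT8 were 89.1, 41.6 and 16.5 CPM. Among fibroblast markers COL1A1 had 66 to 88 and 14 to 22 reads, and COL1A2 at most 18, and the others but ACTA2 had 4 or fewer. ACTA2, a smooth muscle actin, had 10.4, 10.1 and 7.45 CPM with Tranilast and 45.5, 20.9 and 40.3 CPM with Amphotericin B, and was 3.85-fold lower without overlap (adjusted p = 0.0135, edgeR quasi-likelihood test). ALB, the hepatocyte marker with the most reads (1 to 9 and 5 to 12), was 5.56-fold lower (adjusted p = 0.035 by edgeR), at 1.12, 2.45 and 0.226 CPM against 7.82, 9.63 and 3.73 CPM. The part of other cell types in the results was not tested.

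The arms differed in library composition. The 2 mitochondrial ribosomal RNAs took 2.1% to 2.53% of the reads with Tranilast and 12.3% to 14.8% with Amphotericin B. The cytosolic ribosomal protein genes took 11.1% to 11.6% and 18.7% to 19.6%. Untreated libraries lay near the Tranilast arm, at 1.79% to 2.2% and 11.3% to 12%. The cisplatin and Telmisartan arms were widely spread, with mitochondrial ribosomal RNA above the Tranilast range in all 6 libraries. Their mitochondrial ribosomal RNA shares were 13.7%, 5.61% and 3.41% in cisplatin replicates 1, 2 and 3, and 10.8%, 12.9% and 3.61% in Telmisartan replicates 1, 2 and 3. In bulk RNA, fewer cells of a kind and less RNA per cell cannot be told apart.

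**Figure D1:**
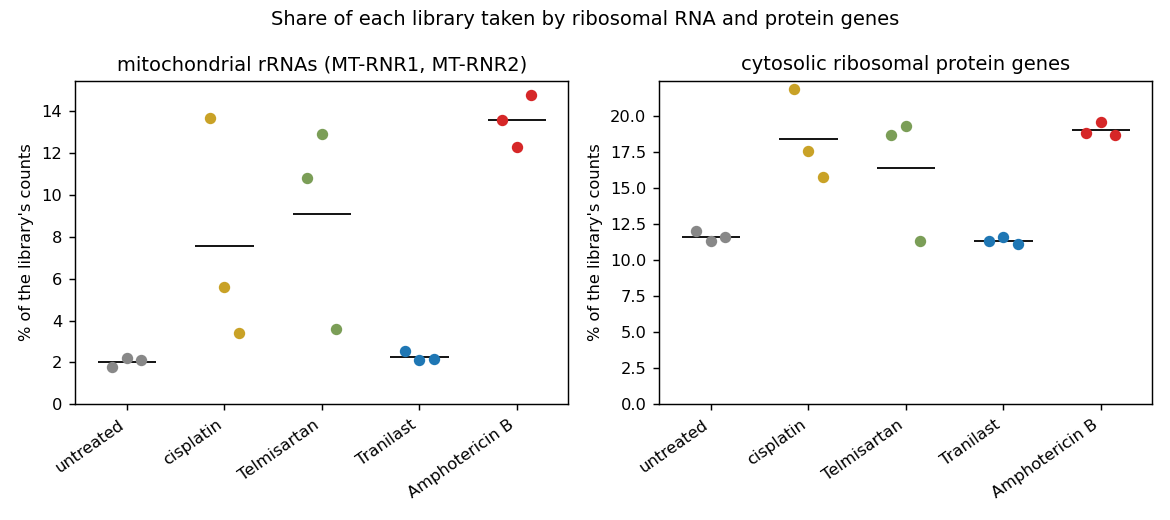
Percentage of each library's counts taken by the 2 mitochondrial ribosomal RNAs (left) and by cytosolic ribosomal protein genes (right), by arm; points are libraries in replicate order and lines are means of 3. The Tranilast libraries sit with the untreated ones, between 2.1% and 2.53% on the left, and the Amphotericin B libraries sit between 12.3% and 14.8%.

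Over all genes tested, 4003 (36%) passed the threshold of 0.05 (edgeR quasi-likelihood test with Benjamini-Hochberg adjustment, in a model of all 15 libraries). With Tranilast, 1817 (16.4%) of these had lower and 2186 (19.7%) had higher levels, as percentages of all genes tested. At least 2-fold differences made up 1214 and 1303 of these calls (10.9% and 11.7% of all genes). The split moved with scaling. It was 2105 lower and 1655 higher with RLE factors, 2202 and 1758 with DESeq2, and 763 and 5313 when libraries were scaled by total alone, where the median log2 fold change of all genes moved from 0.15 to 0.81. Directions are therefore given below relative to that of the bulk of genes under TMM. A list is to be read against the 16.4% lower, the 19.7% higher and the median of 0.15 of all genes. With a covariate for the log2 mitochondrial ribosomal RNA share, an alternative added after the data were seen, 2 genes were lower and 29 higher (453 and 728 at an unadjusted p under 0.05). As the arms do not overlap in that share, the covariate and the choice of drug cannot be told apart within the 6 libraries, and the slope came from the other arms.

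Averaged over replicates, the Tranilast arm stood close to untreated cells. The median absolute difference in mean log2 CPM over the 11113 genes was 0.29 between Tranilast and untreated cells, 0.46 between Tranilast and cisplatin alone, and 0.6 between Tranilast and Amphotericin B. For Amphotericin B it was 0.65 against untreated cells and 0.45 against cisplatin alone. A difference of more than 2-fold was seen for 7.84% of genes between Tranilast and untreated cells and for 29.6% between Amphotericin B and untreated cells.

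The copper importer and the copper chaperone differed in opposite directions. ATOX1 (chr5:151742316-151772532, GRCh38, minus strand) had 56.6, 52.9 and 32.1 CPM with Tranilast and 324, 274 and 254 CPM with Amphotericin B. The arms did not overlap, and the level was 6.05-fold lower with Tranilast (log2 fold change -2.60, SE 0.42, adjusted p = 0.00103, edgeR quasi-likelihood test). Untreated cells averaged 54.3 ± 10.2 CPM (SD, n = 3). SLC31A1 (chr9:113221562-113264492, GRCh38, plus strand) had 144, 157 and 143 CPM with Tranilast and 40.5, 64.2 and 53.7 with Amphotericin B. It was 2.81-fold higher with Tranilast (log2 fold change 1.49, SE 0.29, adjusted p = 0.00164 by edgeR), again without overlap. The span of ATOX1 holds the pseudogene RPLP1P6 on its own strand and overlaps G3BP1 on the other, and that of SLC31A1 overlaps CDC26 on the other strand. The use of strand in counting is not given in the sources used here, so reads of such partners cannot be told apart. Other named copper genes have partners on their own strand too, RPSAP26 for COMMD1, POPDC2 for COX17, a small RNA for SOD1 and AC093423.3 for LRRC8D.

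STC2 (chr5:173314713-173329503, GRCh38, minus strand) encodes stanniocalcin 2, a secreted glycoprotein induced by ATF4 and by low oxygen. Its level was 217, 213 and 263 CPM with Tranilast and 36.3, 77 and 44.7 CPM with Amphotericin B. The lowest Tranilast library was above the highest Amphotericin B library, and the difference was 4.4-fold (log2 fold change 2.14, SE 0.38, adjusted p = 0.00109 by edgeR).

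Of the 38 genes listed for copper and platinum handling, 23 passed the filter on low counts, and 8 were lower (34.8%, against 16.4% of all genes), 3 higher (13%, against 19.7%) and 12 did not pass the test. The list median was -0.28, against 0.15 for all genes. Scaling by library total alone changed the balance of this list to 4 lower and 9 higher. Besides ATOX1, the lower genes were chaperones of cytochrome c oxidase assembly, superoxide dismutase, a metallothionein and COMMD1. COMMD1, which takes part in ATP7B trafficking and copper export, had 7.07, 7.36 and 8.12 CPM with Tranilast and 52.6, 39.3 and 51.4 CPM with Amphotericin B, a 6.3-fold difference without overlap. Its untreated mean of 27.5 CPM lay between the arms. SOD1, the cytosolic copper-zinc superoxide dismutase, had 357, 325 and 328 CPM with Tranilast against 1039, 793 and 883 CPM with Amphotericin B, 2.69-fold lower.

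COX17, which passes copper to the oxidase in the mitochondrial intermembrane space, had 30.5, 32.7 and 42.4 CPM against 71.1, 70.6 and 133 CPM. The libraries did not overlap and the adjusted p of edgeR's test was 0.0267. The assembly factors COX11, COX20 and SCO2 were 2.16-fold, 2.06-fold and 1.99-fold lower with Tranilast. The metallothionein MT2A, a cysteine-rich metal binder, was 2.41-fold lower, at 45.4, 46.6 and 34.1 CPM against 86.0, 122.7 and 95.4 CPM. LRRC8A and LRRC8D, subunits of the volume-regulated anion channel that admits cisplatin, were higher with Tranilast together with SLC31A1. LRRC8D had 23.1, 28.4 and 34.98 CPM with Tranilast and 3.56, 12.03 and 8.94 CPM with Amphotericin B (3.58-fold), and LRRC8A was 2.37-fold higher.

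The copper pumps were at the limit of detection. ATP7B had 3 to 4 reads in the Tranilast libraries and 0 to 5 in the Amphotericin B libraries and was not tested. ATP7A, with 4 to 17 and 3 to 8 reads, had a log2 fold change of -0.37 with an SE of 0.62, so that a difference of 2-fold was not detectable at this depth. The efflux transporters ABCC1, ABCC2 and ABCC3 and the organic cation transporters SLC22A2 and SLC22A3 had at most 10 reads in any of the 6 libraries and were not tested either.

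**Figure D2:**
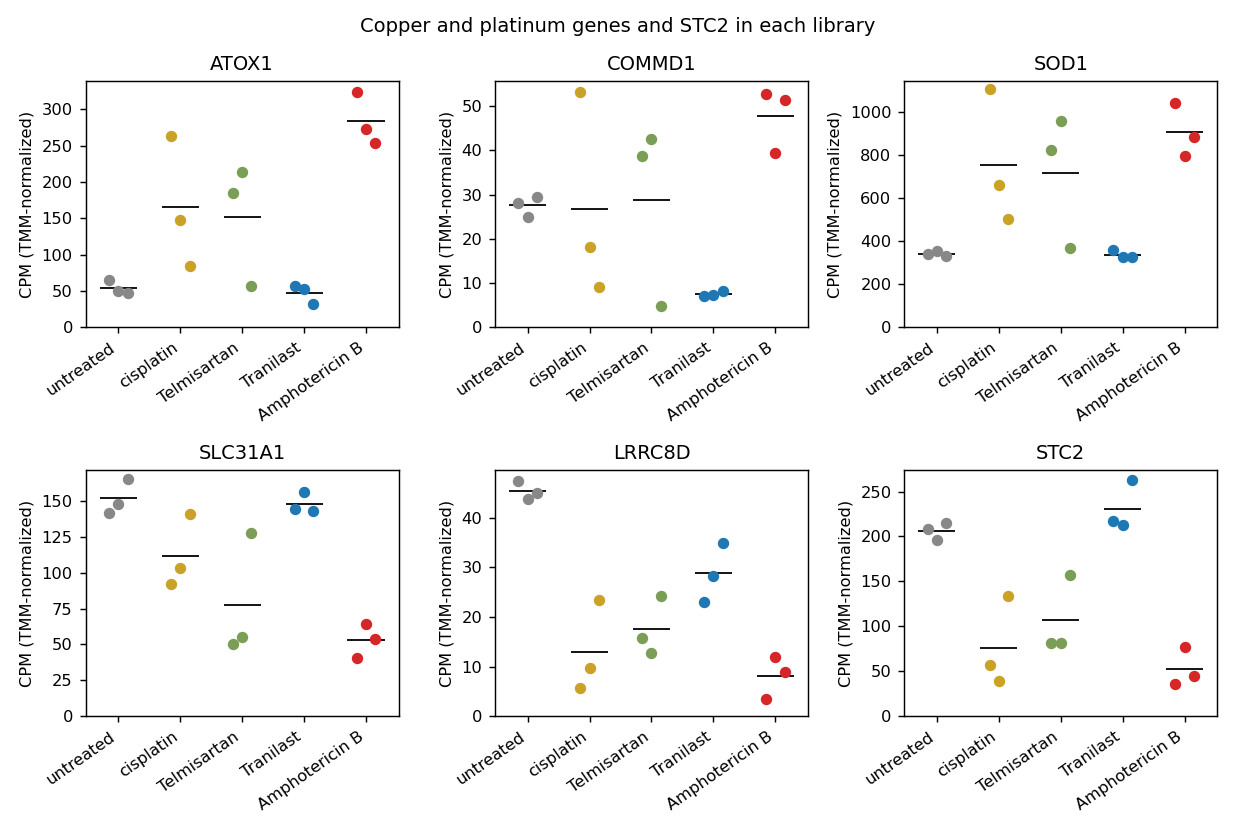
TMM-scaled CPM of 6 genes in each of the 15 libraries by arm; points are libraries in replicate order and lines are means of 3. The 3 Tranilast libraries lie below the 3 Amphotericin B libraries for ATOX1, COMMD1 and SOD1 and above them for SLC31A1, LRRC8D and STC2, and the cisplatin and Telmisartan libraries are widely spread.

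The same genes varied within the cisplatin and Telmisartan arms, where the treatment was the same for each library. ATOX1 had 264, 148 and 85.0 CPM in cisplatin replicates 1, 2 and 3, which is the order of their mitochondrial ribosomal RNA shares, and 185, 213 and 57.0 CPM in Telmisartan replicates 1, 2 and 3, again in that order. SLC31A1 ran the other way in the cisplatin arm, at 91.8, 103 and 141 CPM. In the Telmisartan arm it had 50.0, 55.2 and 127 CPM, highest in the library with the lowest share. With the share as a covariate, the log2 fold changes between the drugs were -0.35 for ATOX1, 0.21 for SLC31A1 and 0.68 for STC2, and their adjusted p in that edgeR fit were 0.764, 0.855 and 0.57. The directions of COMMD1, COX17, SOD1, COX20, MT2A and LRRC8A turned in that fit, to 1, 1.23, 0.24, 0.37, 0.3 and -0.45. The part of library composition in these differences was not tested.

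**Figure D3:**
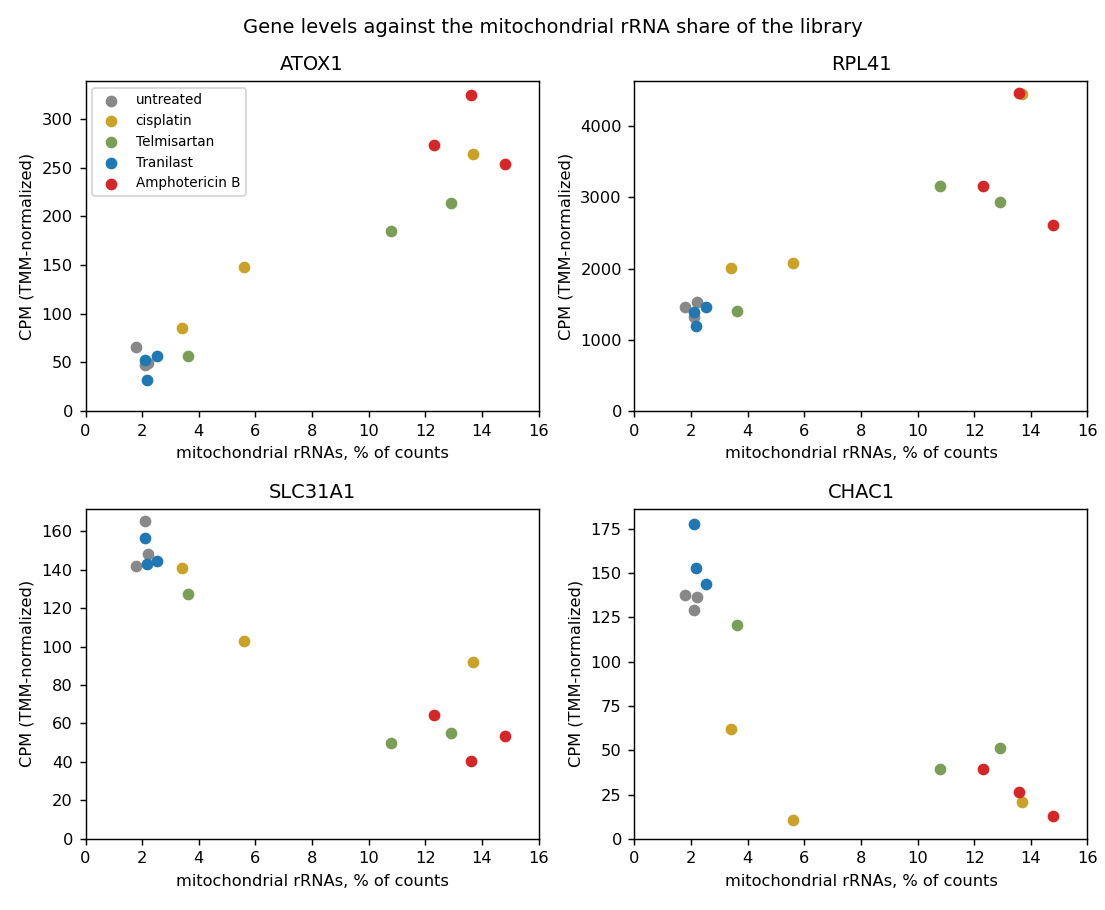
TMM-scaled CPM of ATOX1, RPL41, SLC31A1 and CHAC1 in the 15 libraries against the percentage of counts from mitochondrial ribosomal RNA, coloured by arm. Tranilast and untreated libraries lie at the left and Amphotericin B libraries at the right, and libraries of the cisplatin and Telmisartan arms lie between them or among the Amphotericin B libraries.

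Genes of the integrated stress response were mostly higher with Tranilast. Of 40 tested genes of 41 listed, 30 were higher, 1 was lower and 9 did not pass the test, against 19.7% of all genes higher. Their median log2 fold change was 1.32, and the summed level of the list was 7723 to 8587 CPM with Tranilast and 3586 to 5111 CPM with Amphotericin B. The count was 28 higher with RLE factors and 37 with scaling by library total. With the mitochondrial ribosomal RNA share as a covariate in edgeR, none passed, 4 were higher and 1 lower at an unadjusted p under 0.05, and the median was 0.32.

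Part of the group carries letters near the start that match a short form of the ATF4 site. The short form searched was TGATGNAA, on both strands, in windows of 250 bases before to 50 after each RefSeq start (GRCh38.p14). It was found for 8 of the 33 list members with a window (24.2%), against 4.46% of all 27305 genes. Of these 8 genes, 5 were higher with Tranilast and FGF21 was not tested. In the whole list 30 of the 40 tested were higher. The 3 windows below are shown because they hold the site upstream of genes called higher, and capitals mark it (in CHAC1 it lies on the other strand). A match of letters is a description and not evidence of binding. The CHAC1 stretch is chr15:40953251-40953280 on the plus strand, that of ASNS is chr7:97872458-97872487 on the minus strand and that of CEBPG is chr19:33374060-33374089 on the plus strand.
CHAC1: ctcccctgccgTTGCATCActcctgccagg
ASNS: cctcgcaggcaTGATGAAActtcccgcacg
CEBPG: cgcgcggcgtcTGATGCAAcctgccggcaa

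Among these genes CHAC1, an enzyme that breaks down glutathione, had 144, 178 and 153 CPM with Tranilast and 26.3, 39.3 and 12.7 CPM with Amphotericin B. It was 6.08-fold higher with Tranilast (adjusted p = 0.00147 by edgeR), with no overlap, and untreated cells averaged 134 CPM. ASNS, asparagine synthetase, had 553, 679 and 624 CPM against 294, 385 and 192 CPM (2.13-fold). CEBPG, a partner of ATF4 on DNA, was 2.19-fold higher.

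The regulators ATF4, DDIT3 and ATF3 did not pass the test. ATF4 had 1668, 1829 and 1541 CPM with Tranilast and 1608, 1505 and 1129 CPM with Amphotericin B. The arms overlapped and the adjusted p was 0.452 by edgeR. DDIT3, which encodes the factor CHOP, had 155, 154 and 141 CPM against 93.9, 105.1 and 103 CPM, a log2 fold change of 0.58 with an SE of 0.26 that did not pass the threshold. ATF3 had a log2 fold change of -0.23 with an SE of 0.27. PPP1R15A, the eIF2α phosphatase subunit that ends the response, was the lower gene of the list, at 61.4, 61.3 and 63.0 CPM against 91.0, 81.0 and 85.0 CPM (adjusted p = 0.036 by edgeR), and it reversed to 0.19 with scaling by library total. The kinase gene EIF2AK3 was 3.63-fold higher with Tranilast at a level below 10 CPM.

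Targets in amino acid supply and growth control were higher. SESN2, an inhibitor of mTORC1 signaling, had 544, 662 and 635 CPM with Tranilast and 88.2, 217 and 80.5 CPM with Amphotericin B (4.79-fold). TRIB3, a pseudokinase that feeds back on the pathway, had 98.6, 101 and 109 CPM against 19.9, 48.9 and 19.4 CPM. INHBE, an activin subunit, was the gene with the largest increase by the naming rule, at 29.8, 33.8 and 39.0 CPM against 3.56, 7.22 and 0 CPM. The serine pathway enzymes PSAT1 and PSPH were 2.46-fold and 2.81-fold higher, and the transporters SLC7A11, SLC7A5 and SLC38A2 had log2 fold changes of 1.97, 1.61 and 1.46. GDF15, a secreted stress hormone, was 4.17-fold higher, and DDIT4, another mTORC1 inhibitor, 2.97-fold. In each of these the lowest Tranilast library was above the highest Amphotericin B library, which held for 35 of the 40 tested members and for 31.9% of all genes.

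With Tranilast some of these levels were near those of untreated cells and others were below them. Untreated means were 206 CPM for STC2, 557 CPM for SESN2, 103 CPM for TRIB3 and 37.5 CPM for INHBE. The cisplatin arm had 76.4, 177, 32.9 and 6.01 CPM for the same genes. PSAT1 and ASNS were below the untreated means of 302 and 1016 CPM in both drug arms. SLC38A2, SLC7A1 and ALDH1L2 averaged 366, 94.4 and 97.3 CPM with Tranilast, below the untreated means of 608.5, 133.5 and 150.9 CPM.

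**Figure D4:**
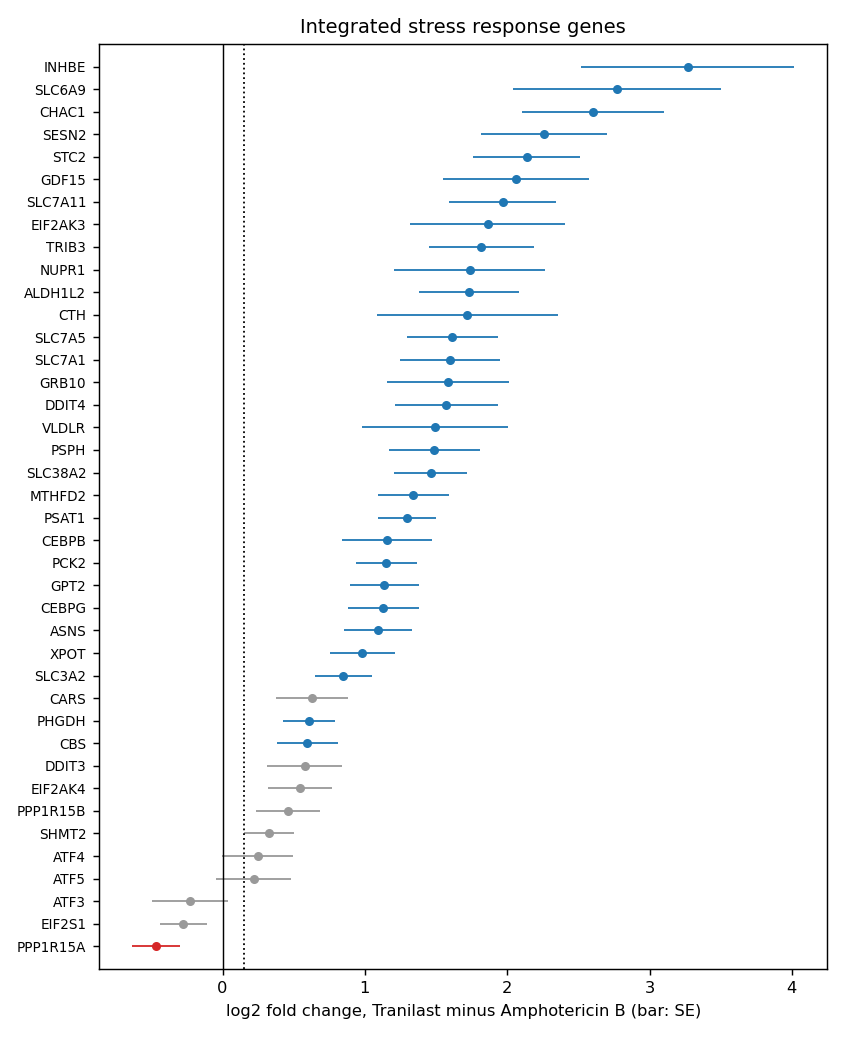
Log2 fold change (Tranilast minus Amphotericin B, bars are SE) of the 40 tested integrated stress response genes in order of size. Blue points passed the test as higher, the red point (PPP1R15A) as lower and grey points did not pass. The dotted line is the median of all genes, 0.15, and the points run from -0.47 to 3.27.

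Cytosolic aminoacyl-tRNA synthetases charge tRNAs with amino acids and are in part ATF4 targets. They included 7 higher and 1 lower gene among 20 tested (median 0.42), against 19.7% and 16.4% of all genes. With RLE factors the counts were 2 and 2. The higher count was 2 without Tranilast replicate 2 or 3 or Amphotericin B replicate 3, and 3 without Amphotericin B replicate 1. AARS, for alanine, had 367, 403 and 353 CPM with Tranilast and 157, 239 and 119 CPM with Amphotericin B, and SARS was also higher (log2 fold change 0.83). KARS was the lower one, at -0.72.

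Endoplasmic reticulum chaperones, controlled largely by ATF6 and XBP1, had more lower than higher members. Of 30 tested, 10 were lower with Tranilast and 1 was higher (median -0.07), against 16.4% and 19.7% of all genes. In edgeR with the mitochondrial ribosomal RNA share as a covariate 0 were lower and 1 higher, and the median was 0.38. Scaling by library total gave 4 and 13. Without Amphotericin B replicate 3 the lower count was 6. DNAJB11, HERPUD1, ERO1A, ATF6, SYVN1 and ERN1 did not pass, although their Tranilast libraries lay above those of Amphotericin B without overlap. Such a separation was seen for 31.9% of all genes. The higher gene was HSPA5, the lumenal Hsp70 known as BiP, at 675, 966 and 991 CPM against 431, 592 and 403 CPM. Both drug arms were far below the untreated libraries, which had 4524, 4140 and 4370 CPM. HSP90B1, the lumenal Hsp90, was lower with Tranilast at 117, 173 and 192 CPM against 272, 326 and 294 CPM. The proline isomerase PPIB and the Derlin gene DERL3 had log2 fold changes of -1.42 and -2.69.

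Cytosolic ribosomal proteins were all lower with Tranilast. The 78 tested of 79 listed genes passed the test (16.4% of all genes did so in this direction), and in each of them the highest Tranilast library was below the lowest Amphotericin B library, a separation seen for 23.3% of all genes. Their log2 fold changes ran from -2.21 to -0.55 with a median of -1.44, and their summed level was 88080 to 94830 CPM with Tranilast and 237500 to 249700 CPM with Amphotericin B. Calls numbered 67 with scaling by library total and 69 with offsets for transcript length. With the mitochondrial ribosomal RNA share as a covariate none of the 78 passed edgeR's test, 5 were higher at an unadjusted p under 0.05 and the median was 0.12. Of the 79 genes, 78 have processed copies named after them in GENCODE 29 (1141 in all), so the level of a single member is uncertain where reads could be split among copies.

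Transcripts of this class begin with a run of pyrimidines, the terminal oligopyrimidine tract through which mTORC1 controls their translation. A tract was counted as a C followed by 5 or more C or T, between 5 bases before and 12 after a RefSeq start. It was found for 53 of the 63 members with a window (84.1%) and for 14.6% of all genes. The rule was set after the ribosomal protein values were known. The stretches below run from 10 bases before to 20 after the start and are shown because they carry the feature these called genes share. Capitals mark the tract. They are chr3:51995876-51995905 on the minus strand for RPL29, chr12:56116623-56116652 on the plus strand for RPL41, chr15:69452808-69452837 on the plus strand for RPLP1, chr6:132814559-132814588 on the plus strand for RPS12 and chr5:181243887-181243916 on the minus strand for RACK1, all in GRCh38.p14.
RPL29: cagccCCTTTCTCTTCCggttctaggcgct
RPL41: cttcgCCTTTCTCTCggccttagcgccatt
RPLP1: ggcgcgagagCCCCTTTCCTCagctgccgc
RPS12: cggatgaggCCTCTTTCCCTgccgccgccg
RACK1: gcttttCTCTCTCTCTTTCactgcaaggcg

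RPL29 had 103, 95.1 and 97.3 CPM with Tranilast and 342, 329 and 327 CPM with Amphotericin B (3.38-fold lower, adjusted p = 0.000908 by edgeR). RPL23 had 602, 546 and 554 CPM against 2455, 2551 and 2883 CPM (4.63-fold), the largest difference of the group. Its span holds the small nucleolar RNAs SNORA21B and SNORA21 on its own strand, and their reads cannot be told apart from those of RPL23. RPLP1, a stalk protein of the large subunit, had 3501, 3396 and 3214 CPM against 10930, 11710 and 10880 CPM. RPL41 and RPS12 were 2.53-fold and 2.48-fold lower. RPL13 was the member with the smallest difference, at 699, 749 and 753 CPM against 991, 1084 and 1143 CPM. Untreated libraries had 122, 106 and 95.7 CPM of RPL29, which overlaps the Tranilast values, and cisplatin replicates 1, 2 and 3 had 361, 219 and 188 CPM.

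Translation factors of the same class were lower or did not pass. Of 18 tested, 12 were lower, against 16.4% of all genes, and the other 6 did not pass (median -0.95). Among those not passing was EEF2 with a log2 fold change of -0.21. By library total 6 were lower and 4 higher. In edgeR with the mitochondrial ribosomal RNA share as a covariate none passed, and the median was 0.16. RACK1, a scaffold on the small subunit, had 940, 881 and 990 CPM with Tranilast and 2482, 2417 and 2984 CPM with Amphotericin B. Its span holds the small nucleolar RNAs SNORD96A and SNORD95 on its own strand, so its own level is uncertain. BTF3, a subunit of the nascent chain complex, was 2.46-fold lower.

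Nuclear genes for the respiratory chain and ATP synthase were lower for 65 of 76 tested, against 16.4% of all genes, with the other 11 not past the threshold. Their median was -1.35, and scaling by library total left 47 lower and 3 higher. None passed edgeR's test with the mitochondrial ribosomal RNA share as a covariate. In that fit 8 were higher at an unadjusted p under 0.05, and the median was 0.24. CYC1, cytochrome c1, had 103, 98.1 and 95.2 CPM with Tranilast and 262, 266 and 310 CPM with Amphotericin B. ATP5MC1, a subunit of the ATP synthase ring, had 128, 134 and 108 CPM against 695, 586 and 573 CPM, 5.01-fold lower. Among the 11 that did not pass were the succinate dehydrogenase genes SDHA, SDHC and SDHD. Mitochondrial ribosomal proteins, which translate the mitochondrial genome, were lower for 40 and higher for 1 of 75 tested (median -0.56). Of all genes, 16.4% were lower and 19.7% higher. Scaling by library total turned the balance of the list to 10 and 15. In edgeR with the mitochondrial ribosomal RNA share as a covariate none passed, and the median was -0.22. MRPL18 and MRPS11 had log2 fold changes of -1.40 and -1.21, and MRPS10 was the higher one, at 0.65.

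RNA of the mitochondrial genome itself did not move as one. Both ribosomal RNAs were lower with Tranilast. MT-RNR1 had 3519, 2954 and 2892 CPM against 46700, 44760 and 53390 CPM, and MT-RNR2 was 8.26-fold lower. The transfer RNAs MT-TL1 and MT-TF, which flank them, were among the 8 largest decreases, with log2 fold changes of -4.48 and -4.27, and MT-TV between them had -3.35. Of the 13 protein-coding genes, 7 were lower, 2 were higher and 4 did not pass (median -1), against 16.4% lower and 19.7% higher of all genes. MT-CO1, the catalytic subunit of cytochrome c oxidase, had 1153, 1069 and 948 CPM with Tranilast against 6597, 4837 and 8668 CPM. MT-ND3 and MT-ATP8 were the higher ones (log2 fold changes 0.93 and 1.11), although MT-ATP8 overlaps MT-ATP6, as MT-ND4L overlaps MT-ND4, and reads in the shared stretch cannot be assigned. With offsets for transcript length the split was 4 lower and 4 higher.

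Proteasome subunits were lower for 23 of 31 tested, against 16.4% of all genes, and the other 8 did not pass (median -0.86). PSMA4, of the core ring, had 257, 228 and 238 CPM with Tranilast and 678, 641 and 596 CPM with Amphotericin B, and PSMB2 was 2.27-fold lower. Scaling by library total left 8 lower and 2 higher. In edgeR with the mitochondrial ribosomal RNA share as a covariate none passed, and the median was 0.01.

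The list of heat shock genes, mostly cytosolic chaperones, had 9 lower and 1 higher of 18 tested (median -0.59). Of all genes, 16.4% were lower and 19.7% higher. HSPA8, the constitutive Hsp70, had 33.1, 33.8 and 30.01 CPM with Tranilast and 222, 140 and 231 CPM with Amphotericin B (6.12-fold lower). HSPE1, the mitochondrial Hsp10, was 3.69-fold lower, HSP90AB1 1.94-fold and DNAJA1, an Hsp40 cochaperone, 1.71-fold. HSPA8 and HSPE1 have 17 and 26 named copies in GENCODE 29, and HSPA8 also holds small nucleolar RNAs, which makes their own levels uncertain. HSF2, a heat shock transcription factor, was the higher one, at 158, 136 and 154 CPM against 42.0, 81.0 and 61.9 CPM. By library total alone the list had 2 lower and 3 higher. In edgeR with the mitochondrial ribosomal RNA share as a covariate none passed, and the median was -0.22. The heat shock element GAANNTTC was in the window of 10 of 19 members (52.6%) and of 8.21% of all genes, and 4 of the 10 were lower. The elements of HSPA8 (chr11:123062348-123062377, minus strand) and DNAJA1 (chr9:33025064-33025093, plus strand), both GRCh38.p14, are shown in capitals as examples from called genes.
HSPA8: ggggcgagcttGAAAGTTCcagaacgctgc
DNAJA1: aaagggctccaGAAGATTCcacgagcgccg

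The NRF2 antioxidant and glutathione genes split. Of 23 tested, 12 were lower and 5 were higher (median -0.98), against 16.4% and 19.7% of all genes. In edgeR with the mitochondrial ribosomal RNA share as a covariate none passed, and the median was 0.02. Scaling by library total gave 7 and 9. Without Amphotericin B replicate 3 the higher count was 2. The glutathione transferase GSTP1, which conjugates platinum drugs, had 1131, 1178 and 1134 CPM with Tranilast and 5298, 5443 and 4937 CPM with Amphotericin B (4.55-fold lower), and the lipid peroxidase GPX4 was 3.42-fold lower. The cystine importer SLC7A11 was 3.91-fold higher, with 90.4, 110 and 115 CPM against 15.6, 42.5 and 23.1 CPM. GCLC, the catalytic subunit of glutathione synthesis, was 2.85-fold higher and NFE2L2, the gene of NRF2, had a log2 fold change of 0.62. HMOX1, which degrades heme, had a log2 fold change of 0.11 and did not pass. The antioxidant element TGACNNNGC was in the windows of 6 of 19 members (31.6%), against 16.1% of all genes.

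FOS, the AP-1 subunit, was the protein-coding gene with the largest decrease among genes averaging 3 or more on the log2 CPM scale. It had 5.95, 1.91 and 3.16 CPM with Tranilast and 82.5, 50.5 and 93.2 CPM with Amphotericin B, a 21.2-fold difference (adjusted p = 0.000808 by edgeR). Its partner FOSB had 10.8, 6.54 and 6.55 CPM against 50.5, 28.9 and 37.3 CPM, and JUN and EGR1 were 2.3-fold and 3.46-fold lower. The whole list of AP-1 and immediate early genes had 7 lower and 8 higher of 28 tested (median -0.27). Of all genes, 16.4% were lower and 19.7% higher. The list had 9 and 3 with RLE factors and 3 and 11 by library total. The higher count was 2 to 4 without any one library other than Tranilast replicate 1. SRF, the factor that drives many of them, was higher with Tranilast (log2 fold change 1.16), as was the pathway inhibitor SPRED1 (1.59).

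Among p53 targets 9 were higher (31%, against 19.7% of all genes) and 2 lower of 29 tested (median 0.55), or 18 and 0 by library total. In the BCL2 family 3 were higher and 2 lower of 14 (21.4% and 14.3%), near the shares of all genes, or 7 and 1 by library total. BBC3, which encodes the proapoptotic protein PUMA, had 190, 197 and 181 CPM with Tranilast and 27.7, 73.0 and 20.9 CPM with Amphotericin B (4.71-fold higher). HRK, another BH3-only gene, was 6.36-fold higher, and the antiapoptotic BCL2L1 2.73-fold. BAX and BAD, also proapoptotic, were lower by 1.72-fold and 3.03-fold, and the antiapoptotic MCL1 had a log2 fold change of 0.17 that did not pass.

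Because Amphotericin B binds sterols, sterol genes were followed. In cholesterol synthesis 5 of 20 tested were lower with Tranilast and 2 were higher (median -0.52), against 16.4% and 19.7% of all genes. Scaling by library total turned these counts to 1 and 7. MVD, of the mevalonate branch, had 60.3, 53.4 and 41.3 CPM against 150, 126 and 104 CPM, and SQLE, squalene epoxidase, had 61.0, 72.0 and 62.7 CPM against 39.8, 25.7 and 26.8 CPM. Among genes of sterol uptake and control 3 were lower and 3 higher of 20 (15% each, below the 16.4% and 19.7% of all genes), or 0 and 7 by library total. Of single members, SREBF1 was higher (log2 fold change 1.25), and NPC2, which moves cholesterol out of lysosomes, was lower (-1.05). Of the genes of fatty acid synthesis and activation 5 of 14 were higher, FADS1 and ACSL3 among them, against 19.7% of all genes. The other 9 did not pass. The higher count was 3 without Tranilast replicate 3 or Amphotericin B replicate 2, and 9 by library total.

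Sodium pump, cation transport and osmotic genes were higher for 7 (38.9%, against 19.7% of all genes) and lower for 2 of 18 tested (median 0.57), or 12 and 0 by library total. ATP1B1, the beta subunit of the sodium pump, had 327, 401 and 364 CPM with Tranilast and 137, 188 and 129 CPM with Amphotericin B. AKR1B1, the aldose reductase that makes sorbitol, was 2.08-fold lower.

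Core autophagy genes were higher for 13 (38.2%, against 19.7% of all genes) and lower for 3 of 34 tested (median 0.58). Higher genes numbered 7 without Amphotericin B replicate 3 and 22 by library total. The initiating kinase ULK2 and the cargo receptor NBR1 had log2 fold changes of 1.95 and 1.54, whereas GABARAP, which marks the growing membrane, was lower at -1.08. Of NF-kappaB subunits and targets 7 of 16 were higher, with CFLAR at 1.22, and 2 were lower, against 19.7% and 16.4% of all genes. Higher genes in this list numbered 3 without Tranilast replicate 2, 4 without Tranilast replicate 1 or 3 or Amphotericin B replicate 1 or 3, and 11 by library total. None was lower by library total or without Tranilast replicate 2 or 3 or Amphotericin B replicate 1 or 2. In the TGF-beta and matrix list, a pathway that Tranilast is known to lower in fibroblasts, 7 of 20 were higher and 3 were lower. Of all genes, 19.7% were higher and 16.4% lower. The higher ones, SKIL and SMAD3 among them, numbered 4 without Tranilast replicate 1, 3 without Amphotericin B replicate 3 and 10 by library total. With length offsets 4 were lower and 4 higher. Lower genes of this list included TIMP1, at 651, 750 and 744 CPM against 2231, 1906 and 2188 CPM, and TGFB1 (log2 fold change -1.04).

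In DNA repair, base excision repair had 5 lower and 2 higher of 23, nucleotide excision repair 4 and 3 of 24, and the Fanconi, recombination and translesion list 1 and 9 of 31. In percent these were 21.7 and 8.7, 16.7 and 12.5, and 3.23 and 29, against 16.4 and 19.7 of all genes. By library total the lists had 2 and 10, 1 and 10, and 0 and 19. The lower count in base excision repair was 3 without any one library other than Amphotericin B replicate 3. The glycosylase gene NTHL1 had 48.0, 47.7 and 37.5 CPM with Tranilast and 109, 120 and 111 CPM with Amphotericin B, and RAD50 was higher (log2 fold change 0.98). BRCA1, of homologous recombination, had 349, 338 and 298 CPM against 90.3, 97.9 and 80.5 CPM (3.67-fold higher), and MAD2L2, a translesion subunit, was the lower gene of its list (log2 fold change -0.69). Lists of G1/S genes, with 4 lower and 3 higher of 30, and of G2/M genes, with 5 and 4 of 32, were at or below the 16.4% and 19.7% of all genes, and by library total they had 0 and 16, and 2 and 23. PTTG1, securin, was 3.37-fold lower with Tranilast. Of replication-dependent histones 6 of 16 were lower, against 16.4% of all genes, and the other 10 did not pass. There were 2 lower and 5 higher both by library total and with length offsets. The lower count was 3 without Tranilast replicate 1 or Amphotericin B replicate 2 or 3. HIST1H4C had 873, 983 and 941 CPM against 1726, 1669 and 1713 CPM, a direction that length offsets reversed. Of SR splicing factors and CLK kinases 4 were lower and 2 higher of 18, against 16.4% and 19.7% of all genes (0 and 8 by library total). SRSF7 had a log2 fold change of -0.83 and SRPK1 of 0.62.

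In the list of VHL, HIF and hypoxia targets, which includes STC2, 7 of 23 were higher (30.4%) and 4 lower (17.4%; median -0.03), or 12 and 2 by library total. Without Amphotericin B replicate 1 the higher count was 4. VHL, the ubiquitin ligase subunit that degrades HIF, had 179, 182 and 170 CPM with Tranilast and 78.9, 89.8 and 43.2 CPM with Amphotericin B, and the glycolytic targets ALDOA and ENO1 had log2 fold changes of -1.39 and -1.52. Of lysosomal genes 5 were lower and 3 higher of 28 (17.9% and 10.7%, near or below the shares of all genes, and 3 and 8 by library total), with the hydrolases GLA and CTSA at -1.70 and -1.10. For the aryl hydrocarbon receptor, to which Tranilast is known to bind, 2 of 5 tested genes were higher, against 19.7% of all genes. They were ARNT and NFE2L2. The other tested genes, NQO1, TIPARP and CYP1B1, did not pass, with log2 fold changes of -0.54, -0.04 and 0.43. For NQO1 the Tranilast libraries lay below those of Amphotericin B without overlap. The typical target CYP1A1 had at most 3 reads in the 6 libraries.

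Among genes of that abundance, RMRP, SNORD3A, AL360012.1 and AL356488.2 were chosen for size alone. They were lower with Tranilast than with Amphotericin B by more than the protein-coding genes other than FOS. RMRP, the RNA of RNase MRP, had 3.72, 2.73 and 3.84 CPM against 149, 73.0 and 192 CPM. Mean levels of RMRP were 2.85 CPM in untreated cells and 3.43 CPM with Tranilast, and those of SNORD3A were 1.98 and 1.38 CPM. RMRP and SNORD3A are genes of small structured RNAs. The others overlap one on the same strand, RNU11 for AL360012.1 and SCARNA2 for AL356488.2. The same held for 2 of the 5 genes with the smallest adjusted p, CSKMT (SNORA57) and AL355075.4 (RPPH1). Reads of the host and of the small RNA cannot be told apart. The smallest adjusted p of a gene without such a partner was that of ISG15, a ubiquitin-like interferon product with an antisense gene on its span, with 72.6, 54.5 and 56.6 CPM against 219, 221 and 212 CPM (adjusted p = 7.93e-05 by edgeR). Of the interferon list, 3 were lower and 2 higher of 18 (16.7% and 11.1%, near or below the shares of all genes), or 2 and 5 by library total. RPL10P16, a pseudogene of RPL10, also had one of the 5 smallest p, and its reads may belong to other copies.

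At the other end, FBXO42, AKNA, RNF125, GOLPH3 and GDPD1 had log2 fold changes of 2.75, 2.71, 2.58, 2.57 and 2.50. RNF125, a ubiquitin ligase, had 18.6, 26.2 and 23.0 CPM with Tranilast and 2.84, 3.21 and 5.22 CPM with Amphotericin B. GOLPH3, a Golgi phosphoinositide reader, had 37.6, 30.5 and 44.7 CPM against 2.84, 8.02 and 8.20 CPM. The remaining one of the 8 largest increases was TSSK6, with 18.2, 23.4 and 22.3 CPM against 6.4, 2.41 and 1.49 CPM.

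Called genes also differed in transcript length. The median of the longest annotated transcript was 1882.5 bases for genes lower with Tranilast, 4686.5 for genes higher and 3576 for all genes tested. In the quartile of shortest transcripts 39.6% of genes were lower and 6.35% higher, and in the quartile of longest 5.48% and 30.9%. Zinc finger genes of chromosome 19, of which 140 were tested, had 38 higher (27.1%) and 4 lower. The higher count was 16 without Amphotericin B replicate 1, 19 without replicate 3 and 23 or 24 without any one Tranilast library. Of the 625 tested protein-coding genes with the longest genomic spans, 103 were lower (16.5%) and 78 higher (12.5%), near and below the shares of all genes, and by library total they had 56 and 207. With 1 library left out the counts were 58 to 80 and 44 to 65. With length offsets in the edgeR fit 1423 genes were lower and 1689 higher. Length and library composition varied together with the drug, and their part in these differences was not tested.

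**Figure D5:**
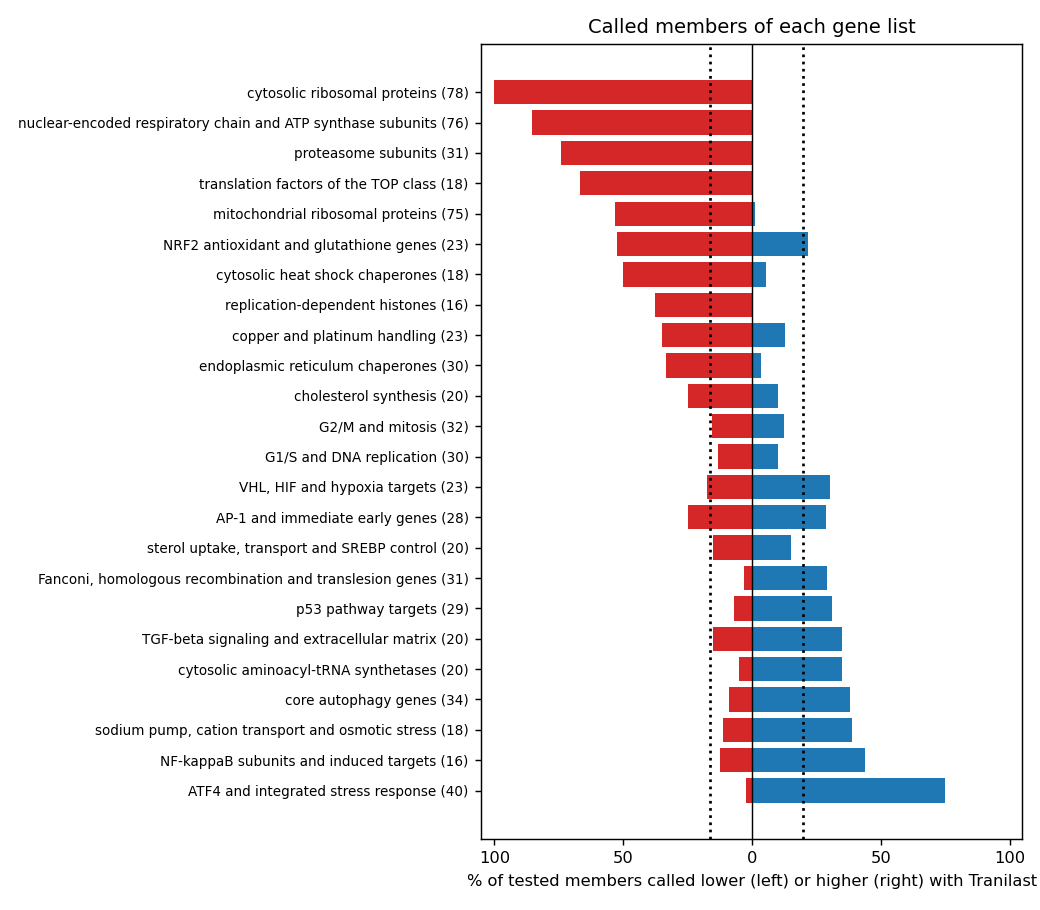
Percentage of the tested members of each list (number in brackets) that were called lower (red, left) or higher (blue, right) with Tranilast at an adjusted p under 0.05. Dotted lines mark the 16.4% and 19.7% of all genes, and the bars run from cytosolic ribosomal proteins, lower in 100%, to the integrated stress response, higher in 75%.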

How the data were processed

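The authors deposited raw read counts per Ensembl gene for each library, as whole numbers without normalization or filtering. Their processing notes name STAR 2.3.0, HTSeq and the build hg19, and the annotation and strand setting are not given in the sources used here. Names, positions and longest transcripts came from GENCODE 29 on GRCh38, which matched 45776 of the 47634 identifiers. No deposited column was left out.

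Counts of all 15 libraries were fitted in edgeR 4.0.16 (R 4.3.3) with filterByExpr by condition, TMM factors, a term per condition and the quasi-likelihood test of Tranilast minus Amphotericin B, with Benjamini-Hochberg adjustment at 0.05. SE was derived from the log2 fold change and its F statistic. The procedure was tested on simulated data. It recovered 35 of 100 simulated 2-fold changes and 92 of 100 simulated 4-fold changes, with the rest of the 11113 genes unchanged. In the data 4003 genes were called, so the simulated recovery need not hold for this contrast. A gene that did not pass may still differ by 2-fold. Alternatives used DESeq2 1.42.0, limma 3.58.1, other factors, filters and libraries, length and GC offsets and thinning. Promoters were read with Python 3.11.15.

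Named genes are ATOX1, STC2, SLC31A1, called copper genes, the 8 largest changes each way (mean log2 CPM of at least 3, arms apart), the 5 smallest p, and for each list the 2 smallest p each way or further examples. For some lists only counts or fewer members are given. The comparison, members and lists were chosen with earlier results of these data known. Same-numbered libraries of the 2 arms correlated by 0.054, 0.019 and 0.1 in their deviations from the arm means, and were not treated as pairs. Single values of a few listed genes are not reported here.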

Additional observations from a re-analysis of the deposited data

How the results depend on the processing

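The counts of lower and higher genes were 1053 and 902 at an adjusted p under 0.01, 763 and 5313 with scaling by library total, and 2 and 29 with the mitochondrial ribosomal RNA share as a covariate. With 1 library of the 2 arms left out they were 1299 to 1628 and 1254 to 1865. The higher count moved by over 1.5 times without Amphotericin B replicate 1 (1438) or 3 (1254). With the covariate and 1 of the 9 other libraries left out they were 0 to 16 and 0 to 115. By library left out they were 2 and 34, 1 and 29, and 1 and 20 for untreated replicates 1, 2 and 3, 0 and 0, 4 and 50, and 0 and 0 for cisplatin replicates 1, 2 and 3, and 6 and 42, 0 and 8, and 16 and 115 for Telmisartan replicates 1, 2 and 3. Without cisplatin replicate 1 or 3, edgeR gave 244 and 418, or 434 and 592, at an unadjusted p under 0.05. The replicate block gave 1807 and 2166 and changed no call among the 147 named genes, and the replicate numbers are only shared numbers. Fitting only the 6 libraries gave 2566 and 2265 of 9933 genes tested, and removing mitochondrial genes gave 1810 and 2184 of 10996.

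Among the named genes the covariate left 2 calls, ended 108 and reversed 37. The reversed log2 fold changes were 0.3 for MT2A, -0.45 for LRRC8A, 1.23 for COX17, 0.24 for SOD1, 1 for COMMD1, 0.37 for COX20, 0.35 for RMRP, 0.9 for AL360012.1, 0.19 for MT-TF, 0.63 for AL356488.2, -0.44 for INHBE, -0.18 for MRPS10, 0.01 for ATP5MC1, 0.26 for NPC2, 0.39 for ABCG1, 0.64 for TIMP1, -0.19 for ARNT, 0.21 for RPS27L, 0.05 for SOD2, 0.53 for NFKBIZ, -0.14 for HSF2, 0.42 for GABARAPL2, -0.29 for TDG, 0.4 for RPA3, 0.05 for GTF2H5, -0.37 for E2F2, -0.25 for E2F3, 0.2 for SRSF7, -0.34 for SRPK1, 0.11 for ENO1, 0.13 for FXYD5, 0.29 for IFITM3, -0.01 for IFIT1, 0.16 for MT-RNR2, 0.02 for KRT18, 1.31 for ACTA2 and 1.02 for ALB. Scaling by library total ended 23 of the 147 named calls, length offsets 18, the 0.01 threshold 33, leaving out 1 library of the 2 arms 9 to 19, and each remaining alternative at most 8. Scaling by library total also reversed PPP1R15A (0.19), SOD2 (0.03), MCM7 (0.1), TK1 (0.12) and KRT18 (0.05), and length offsets, with or without the block, reversed HIST1H4C (0.48 in both). The cause was not tested.

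Low counts limit ATP7A, ATP7B and other genes under about 10 reads.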
